A study of Mus musculus with 39 samples.

Results

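Gene expression in epididymal fat was compared between late and early time points of a high fat diet. The late group (HFC late) held 5 arrays, of weeks 3, 6, 9, 15 and 18, and the early group (HFC early) held 4 arrays, of days 6, 10 and 14 and of week 0, so 9 of the 39 arrays of the series were used. All came from C57BL/6J mice that had been weaned at 3 to 4 weeks of age and then given a diet with added sucrose and 60% of its calories from fat, with 30 mice in a group at the start. The control diet (LFC) took 10% of its calories from fat. Its arrays, 4 early (the same time points) and 4 late (weeks 6, 9, 15 and 18), were used beside the high fat ones. The faulty week 12 array of the high fat diet and week 3 array of the control diet were left out of both groups. Weeks were counted from day 14 of the diet, so week 0 and day 14 had the same time on the diet. The arrays held 1 sample per diet and time point, and the labels do not say whether a sample was a pool of mice. The time points of a phase therefore served as its replicates, p-values measure the spread between those arrays, and the mice grew older with time on the diet, so age and time on the diet cannot be told apart.

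The epididymal fat pad is a visceral white fat depot that grows in young male mice both by making new adipocytes and by filling those present with lipid. Adipocytes are made from progenitors that divide in the stroma of the pad, and on a high fat diet the filled adipocytes later draw macrophages, mast cells and lymphocytes, with a change in the adipokines the pad secretes. Bulk RNA of such tissue mixes all these cells, so fewer cells of a type and less RNA per cell cannot be told apart.

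Every level below is the log2 of a probe's processed signal relative to the 75th percentile of its array, and every difference is late minus early on that scale unless another is named. By limma (two-sided, Benjamini-Hochberg adjustment over 29983 probes, threshold 0.05), 0 probes passed and percent called was 0. The smallest adjusted p was 0.115, and 4648 probes (15.5%) had an unadjusted p under 0.05, of which 2342 were higher and 2306 lower late. The methods' t-test gave 4401 probes at that level and 0 after adjustment. Leaving out week 0 gave 242 probes past the threshold, with early then equal to the other scan period, and weighting arrays by their scatter gave 5510. Over the 21285 genes, each given by its brightest probe, the median difference was 0.05. All 5 late arrays lay above all 4 early arrays for 579 genes (2.72%) and below them for 491 (2.31%). At an unadjusted p under 0.05, 1653 genes (7.77%) were higher and 1529 (7.18%) lower. These shares are the background against which the counts of each gene list below are to be read.

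Days 6, 10 and 14 were scanned in another period than week 0 and the late weeks, so the lists described below are also given against week 0 alone. With scan period as a term in limma, 1 of 29973 probes passed, that of the ribosomal pseudogene Rpl7-ps8, listed at -5.49 at week 0 against a late mean of 5.96 (adjusted p = 2.24e-05). Its probe can also bind near-identical ribosomal copies, so the gene is uncertain. The 75th percentile of the signal was 1016 to 1238 intensity units on the early arrays and 489 to 968 on the late ones, with no overlap (exact permutation test over the splits of the 9 arrays, two-sided, p = 0.0397). The share of spots well above background was 67% to 77.1% early and 61% to 77.2% late (exact p = 0.214). Adipocyte markers were above background in both groups, 10 of 10, and their summed level was 236.8 to 432 early and 204.2 to 559.5 late. Saturated Fabp4 made up 52.92 of 236.8 at week 0 and 129.5 of 289.5 at week 6. Without Fabp4 the sums were 183.8 to 371 early and 138.6 to 434.4 late. The level of a saturated probe follows the scaling of its array, so the sum is a limited measure of adipocyte content. Of the adipocyte markers 8 of 10 had a lower late mean (median -0.78, and -1.11 without those saturated on all arrays of a group). The median was 0.04 against week 0 and -0.49 without the day 10 and week 6 arrays. Their median relative level was 0.93 to 1.19 on days 6 to 14, -0.34 at week 0, 1.36 at week 3 and as low as -1.29 at week 6.

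On the first principal component (43.9% of the variance), days 6, 10 and 14 scored 135.66, 125.7 and 102.39, and the late week 3 array scored 88.41, on the same side. Week 0 scored -65.29 and lay with the other late arrays, at -126.72 to -52.65. Much of the variance thus did not follow the split into early and late.

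**Figure D1:**
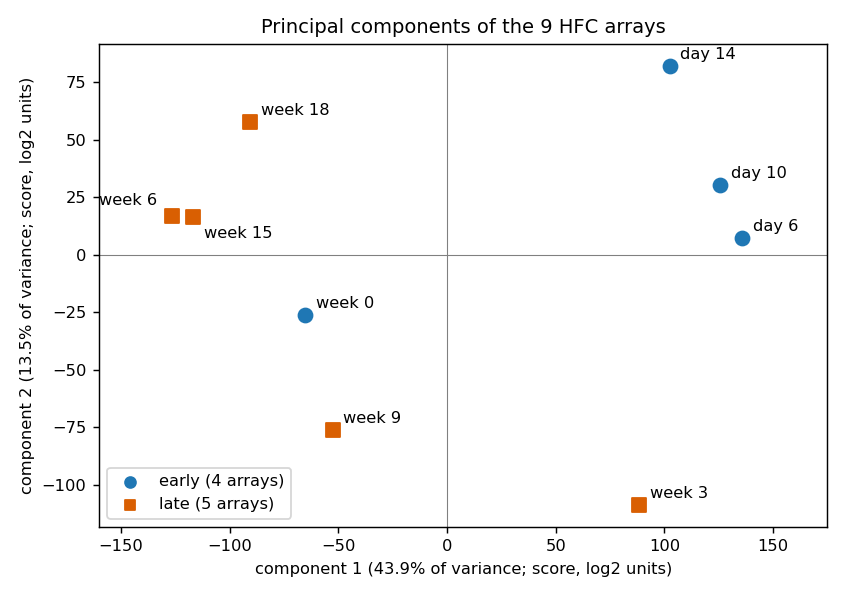
Scores of the 9 high fat diet arrays on components 1 and 2, in log2 units, with early arrays as circles and late arrays as squares. Component 1 holds 43.9% of the variance, and on it week 3 sits at 88.41 beside days 6 to 14, while week 0 sits at -65.29 beside the late arrays.

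Markers of other tissue stood out on several arrays. The day 10 array had epididymis genes at high level, such as the lipocalin gene Lcn5 at 5.89 (0.30 or lower on the others) and the epididymal peroxidase Gpx5 at 2.39 (-2.72 or lower on the others). The summed level of the 20 epididymis markers was 119.6 there, 21.1 at week 0, 0.2396 and 0.4071 on days 6 and 14, and 0.1405 to 13.1 late, with week 6 the highest. At week 0 Crisp1, a secreted protein of the epididymis at 4.31, made up 19.78 of that sum. The sperm protein gene Prm1 was at 2.09 at week 15 and at -0.67 or lower elsewhere, and the 12 testis markers summed to 11.21 there against 1.096 at the lowest late array and 1.601 to 3.006 early. The week 6 array almost lacked the mesothelial genes Upk3b (-7.70, others -1.58 to 1.63) and Msln (-3.01), and the visceral gene Wt1 (-5.38). It held Tbx15, a gene of subcutaneous fat, at -0.53 (-5.98 or lower on the others), the lymph node vessel gene Glycam1 at 3.24 (-6.44 or lower) and skeletal muscle Tnnc2 at 2.60. Other markers went the other way at week 6. Visceral Gata4 (-3.25), Gata6 (1.28) and Nr2f1 (-4.31) were at their highest, and subcutaneous Hoxc8 (-7.52) at its lowest. Mesothelial Slpi (4.36) and Gpm6a (0.57) lay within the range of the other arrays. The list medians there were -3.92 for mesothelium, -0.83 for visceral and 0.91 for subcutaneous markers. List values without the day 10 and week 6 arrays are given where they turn a sign or move a value by over 1.5 times.

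Genes of cell division were lower late than early, and the difference was already present within the early phase. The mitosis list holds genes of chromosome condensation, the spindle and exit from mitosis. Of its 29 genes tested, 29 had a late mean below the early mean, with a median difference of -1.85. For 15 of them all late arrays lay below all early arrays (2.31% of all genes did), and 25 had an unadjusted p under 0.05 (7.18% of all genes). The median level of the list relative to each gene's mean was 2.16 at its highest, on day 6, was -0.02 on day 14, and was 0.32 at week 0. Day 14 and week 0, which share their time on the diet but not their scan period, both lay between days 6 and 10 and the late arrays. The late arrays lay between -1.60 (week 18) and -0.31 (week 9). Against week 0 alone the median difference was -1.15, with 28 of 29 genes lower late.

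The 4 genes of the list with the smallest p whose RefSeq promoter was at hand (build GRCm38.p6, 250 bases before to 50 after the start) are shown because promoters of genes switched on late in the cell cycle often carry a CCAAT box and a CHR element. Capitals mark the CCAAT box, which reads ATTGG where it lies on the minus strand, and the CHR element, searched as TTTGAA or as TTCGAA on both strands, the first of which reads TTCAAA when it lies on the minus strand.
Nek2, chr1:191821223-191821522, plus strand: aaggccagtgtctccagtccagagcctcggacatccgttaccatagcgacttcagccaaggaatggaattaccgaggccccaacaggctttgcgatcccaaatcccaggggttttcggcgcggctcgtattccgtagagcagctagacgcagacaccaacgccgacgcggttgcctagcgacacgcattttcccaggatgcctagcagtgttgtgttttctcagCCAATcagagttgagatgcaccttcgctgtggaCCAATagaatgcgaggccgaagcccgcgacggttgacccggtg
Bub1b, chr2:118597961-118598260, plus strand: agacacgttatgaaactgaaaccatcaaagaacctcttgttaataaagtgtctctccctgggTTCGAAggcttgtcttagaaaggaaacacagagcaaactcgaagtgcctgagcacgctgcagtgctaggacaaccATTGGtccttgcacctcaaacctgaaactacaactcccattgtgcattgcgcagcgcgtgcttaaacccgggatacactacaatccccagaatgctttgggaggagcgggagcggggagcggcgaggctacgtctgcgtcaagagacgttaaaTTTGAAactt
Kif11, chr19:37376132-37376431, plus strand: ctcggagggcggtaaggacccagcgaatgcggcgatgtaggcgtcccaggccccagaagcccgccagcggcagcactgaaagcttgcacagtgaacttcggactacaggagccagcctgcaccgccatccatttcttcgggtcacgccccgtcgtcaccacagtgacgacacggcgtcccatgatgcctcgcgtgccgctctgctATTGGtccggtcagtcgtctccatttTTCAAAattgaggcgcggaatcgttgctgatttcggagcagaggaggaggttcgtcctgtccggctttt
Melk, chr4:44300667-44300966, plus strand: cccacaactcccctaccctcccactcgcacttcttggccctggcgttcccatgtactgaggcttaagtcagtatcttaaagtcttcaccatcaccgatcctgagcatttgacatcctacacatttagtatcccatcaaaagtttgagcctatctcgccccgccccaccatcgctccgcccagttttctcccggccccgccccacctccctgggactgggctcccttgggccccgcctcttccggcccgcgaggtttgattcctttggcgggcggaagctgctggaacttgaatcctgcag

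Of the 29 mitosis genes 24 matched a promoter. CCAAT stood in 20 of the 24 (83.3%) and in 37.9% of all 27025 promoters of that length, CHR in 18 (75%) and in 19.4% of all, and both in 17 (70.8%) and in 7.7% of all. Neither motif was found in the Melk window. These are matches of letters in a window, given as a description with no test.

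Nek2, a centrosome kinase, was at -1.52, -1.54, -2.37 and -2.93 on days 6, 10 and 14 and at week 0, and at -4.07, -3.84, -3.62, -3.83 and -4.41 at weeks 3, 6, 9, 15 and 18. Every late array lay below every early one, with a difference of -1.86 (SE 0.35, limma adjusted p = 0.251). Bub1b, a kinase of the spindle checkpoint, was at -0.44, -0.68, -2.19 and -2.49 on the early arrays and at -3.78, -4.20, -3.54, -3.56 and -4.06 on the late ones, a difference of -2.38 (SE 0.45, adjusted p = 0.251) with no overlap. For Pbk, a mitotic kinase, the early levels were 0.46, -0.35, -1.80 and -1.05 and the late levels -2.76, -3.60, -2.31, -2.78 and -3.74 (difference -2.35, SE 0.49, adjusted p = 0.251). Days 6 and 10 were the highest arrays for each of these 3 genes, and day 14 and week 0 lay between them and the late arrays. Kif11 and Kif20a, motor proteins of the spindle, differed by -2.13 and -1.90, and Melk, a kinase of dividing cells, by -2.19. Cdk1, the kinase that drives entry into mitosis, differed by -2.50. The usual marker of cycling cells, Mki67, differed by -1.0 (SE 0.43, adjusted p = 0.319), and Top2a, which untangles DNA before division, by -1.71 (SE 0.53, adjusted p = 0.279). Both had late arrays within the early range.

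The DNA replication list showed the same order with smaller differences. Of 26 genes, 24 were lower late (median -0.97), 9 without overlap and 16 at an unadjusted p under 0.05, with shares of all genes as above. Against week 0 alone the median was -0.43, with 25 of 26 genes keeping the sign. Tk1, which makes thymidine phosphate for new DNA, was at 1.69, 1.16, -0.66 and -0.28 early and at -1.79, -1.47, -1.25, -1.53 and -2.41 late (difference -2.17, adjusted p = 0.251). Fen1, which trims the lagging strand, differed by -1.56, and Pole, a polymerase subunit, by -1.74, both with no overlap. Mcm4 (0.12) and Pcna (0.15), parts of the replication machinery, were the 2 genes of the list with a late mean above the early mean. The mitosis and replication lists were the only ones among the 36 process lists whose median level was lower on every late array than on every early array.

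**Figure D2:**
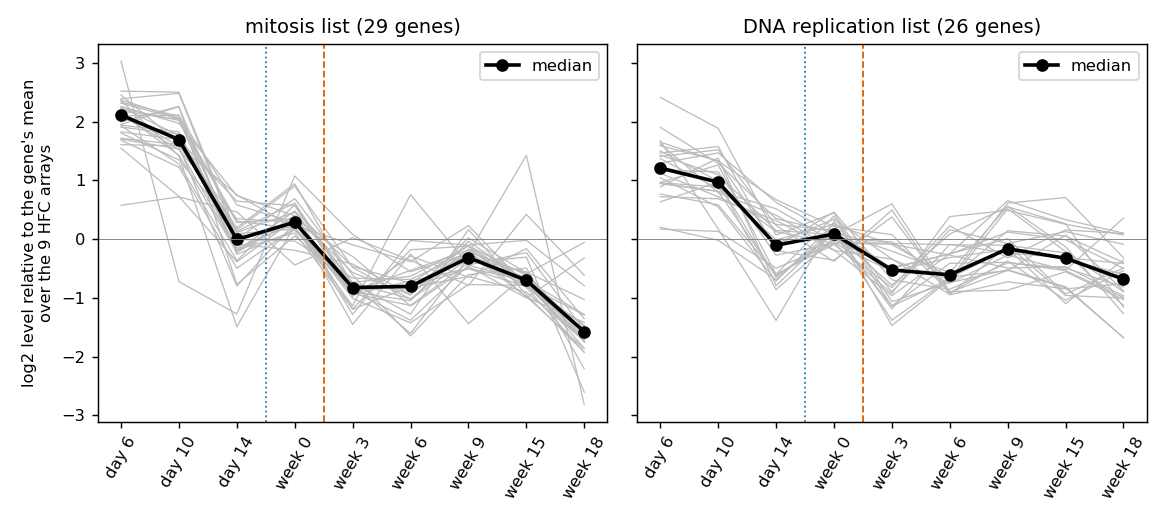
Log2 level of each gene of the mitosis list (29 genes) and DNA replication list (26 genes) relative to its mean over the 9 high fat diet arrays, in grey, with the median in black. The dotted line separates the scan periods and the dashed line separates early from late, and the medians are highest on day 6, lower on day 14 and week 0, and lowest on the late arrays.

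Heat shock genes were higher late, and the list median per array did not overlap between the groups. Heat shock proteins are chaperones that hold or refold other proteins. Of 13 genes 11 had a higher late mean (median 0.75), 3 lay without overlap (2.72% of all genes did) and 8 had an unadjusted p under 0.05 (7.77% of all genes). The median relative level was -0.87 to -0.46 on days 6 to 14, -0.30 at week 0 and 0.16 to 0.45 on the late arrays. Against week 0 alone the median was 0.52, with 11 of 13 genes keeping the sign. Hsph1, a large chaperone that assists Hsp70, was at 2.25, 1.08, 1.36 and 1.85 early and at 3.44, 3.70, 4.33, 3.68 and 3.47 late, a difference of 2.09 (SE 0.31, adjusted p = 0.251) that was 1.88 against week 0. All 5 late arrays lay more than 1 log2 above the highest early array. Dnajb1, a co-chaperone of Hsp70, was at 3.62 to 4.45 early and 4.67 to 5.42 late (difference 1.30), and Hsp90aa1, the inducible Hsp90, differed by 0.75. The inducible Hsp70 gene Hspa1a was at -0.51, 0.18, 2.48 and 5.08 early and at 3.76, 6.46, 6.91, 6.12 and 6.89 late, with 2 late arrays saturated. Its difference was 4.22 over all early arrays and 0.94 against week 0, the highest of the early arrays. The mitochondrial chaperone Hspd1 was not higher late (-0.44).

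The glucocorticoid list, of activation and target genes of the steroid, had a median of 1.20 with 13 of 14 genes higher late, 2 of them without overlap and 4 at an unadjusted p under 0.05. Its median was 1.42 against days 6 to 14 and 0.32 against week 0. Zbtb16, a transcription factor induced by glucocorticoids, was at 0.82, 1.15, 2.19 and 1.44 early and at 2.73, 2.85, 3.24, 3.20 and 3.25 late (difference 1.65, SE 0.31, adjusted p = 0.251; 1.61 against week 0). Its late arrays lay close together and above all early arrays. The metallothionein Mt2 differed by 2.19 with no overlap, with 1 early and 4 late arrays saturated. Fkbp5, a chaperone partner of the glucocorticoid receptor, differed by 1.09 and stood at 2.64 on week 3 against -0.51 to 0.52 on the other late arrays. The receptor itself, Nr3c1, differed by -0.15.

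Among circadian clock genes, targets of the clock and its core activator differed in opposite directions. Of 18 genes 15 were higher late (median 0.85), 8 of these at an unadjusted p under 0.05, and against week 0 the median was 0.28. Dbp, a transcription factor driven directly by the clock, was at 1.89, 2.93, 3.60 and 3.79 early and at 5.35, 4.63, 5.28, 4.11 and 4.91 late (difference 1.80, SE 0.43, adjusted p = 0.251). Arntl, which encodes the activator BMAL1, was at -0.24, -1.05, -1.31 and -0.81 early and at -3.01, -2.50, -1.89, -1.60 and -2.53 late, a difference of -1.46. Neither gene overlapped between the groups, and both kept their sign against week 0 (1.07 and -1.50). Bhlhe41, a repressor of the clock, differed by 1.0, also without overlap. Per2 and Ciart, repressors of the same loop, differed by 1.68 and 2.62, but by 0.47 and 0.28 against week 0. The hour at which mice were killed is not given in the sources used here, and its part in these differences was not tested.

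Immediate early genes, which are transcribed within minutes of a stimulus, had the largest list median, and it was not seen against week 0. All 19 genes were higher late (median 2.63), 1 without overlap and 11 at an unadjusted p under 0.05, and the median was 3.44 against days 6 to 14 but -0.05 against week 0. The median relative level was -4.13 to -0.61 on days 6 to 14, 0.78 at week 0, -1.55 at week 3 and up to 1.55 at week 6. Egr2 was the gene without overlap, at -1.53, 0.62, 1.19 and 2.18 early and 3.48, 4.99, 3.70, 3.45 and 3.31 late (difference 3.17, adjusted p = 0.251; 1.61 against week 0). Fos, the best known of them, was at -3.48, -2.32, 3.97 and 5.41 early and at 0.72, 5.76, 4.89, 5.37 and 4.75 late. Its difference was 3.40 (SE 1.89, adjusted p = 0.389) and turned to -1.11 against week 0. Days 6 and 10 were low, and day 14 was closer to week 0 than to them.

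Chemokines and cytokines showed the same dependence on the early array. Of 25 genes 20 were higher late (median 1.05), 0 without overlap, and the median was 1.91 against days 6 to 14 and -0.62 against week 0. Ccl2, the main attractant of monocytes, was at 1.31, 1.98, 1.98 and 5.36 early and at 2.61, 4.98, 6.50, 6.04 and 5.15 late (difference 2.40, SE 0.96, adjusted p = 0.307), and was -0.31 against week 0. Ccl7, a related attractant, differed by 2.81, and by -0.37 against week 0. Of the 5 genes with a lower late mean, the receptor Cx3cr1, carried by resident myeloid cells, had the largest difference, -2.51 (adjusted p = 0.254). Its difference was -0.62 against week 0, which lay inside the late range at -4.55. Leaving out day 6 moved the list median to 0.54, leaving out day 10 moved it to 1.79, leaving out week 3 moved it to 2.36, and leaving out day 10 and week 6 together moved it to 1.65.

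Genes of lipid metabolism were lower late against days 6 to 14 and not against week 0, and the adipocyte markers above moved across the arrays with them. Plin1, Lipe and Fabp4 are both adipocyte markers and members of the lipolysis list, so part of that shared movement is built in. The part of adipocyte content in the differences of the lipid lists was not tested. Of the 22 genes of de novo lipogenesis 21 had a lower late mean (median -1.13), yet 0 lay without overlap, 3 had an unadjusted p under 0.05, and the median against week 0 was 0.13. Fads1, a desaturase of polyunsaturated fatty acids, was at 1.16, 0.84, 1.46 and -0.13 early and at -0.58, 0.15, -0.62, -0.81 and -0.55 late (difference -1.32, adjusted p = 0.268; -0.36 against week 0). Agpat2, which makes phosphatidic acid on the way to triglyceride, was at 4.08, 3.12, 2.52 and 0.12 early and at 3.35, -2.04, -0.91, -2.01 and 0.50 late, so that week 3 lay with days 6 to 14 and week 0 with the late arrays. The desaturase Scd1 (-0.90, adjusted p = 0.468) was saturated on 3 early arrays and 1 late one, and Fasn (-0.62), the fatty acid synthase, on 4 and 2, so both differences are limited by the scanner.

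Week 3 was the highest late array for the other metabolic lists but the thermogenic one, in which week 6 was (0.33) and every late array lay below days 6 to 14 (0.38 to 1.23). The median was -1.03 for breakdown of branched chain amino acids (17 of 18 genes lower), -0.86 for cholesterol synthesis and uptake (19 of 21), -0.80 for fatty acid oxidation (19 of 20), -0.83 for thermogenic genes (9 of 13), -0.54 for the respiratory chain (25 of 26) and -0.48 for lipolysis and the lipid droplet (11 of 16). The numbers without overlap in the lower direction were 0, 1, 0, 0, 0 and 0. Against week 0 the medians were 0.17, 0.17, 0.30, -0.11, 0.23 and 0.11. In cholesterol synthesis Sqle, the squalene epoxidase, was the gene without overlap (-1.23, adjusted p = 0.279; -0.61 against week 0). Ucp1, the uncoupling protein of brown fat, differed by -0.32 (SE 0.70, adjusted p = 0.831). Without the day 10 and week 6 arrays the medians of branched chain breakdown, fatty acid oxidation, the respiratory chain and lipolysis were -0.68, -0.45, -0.33 and -0.24. Without day 6 those of the thermogenic list and the respiratory chain were -0.32 and -0.27.

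**Figure D3:**
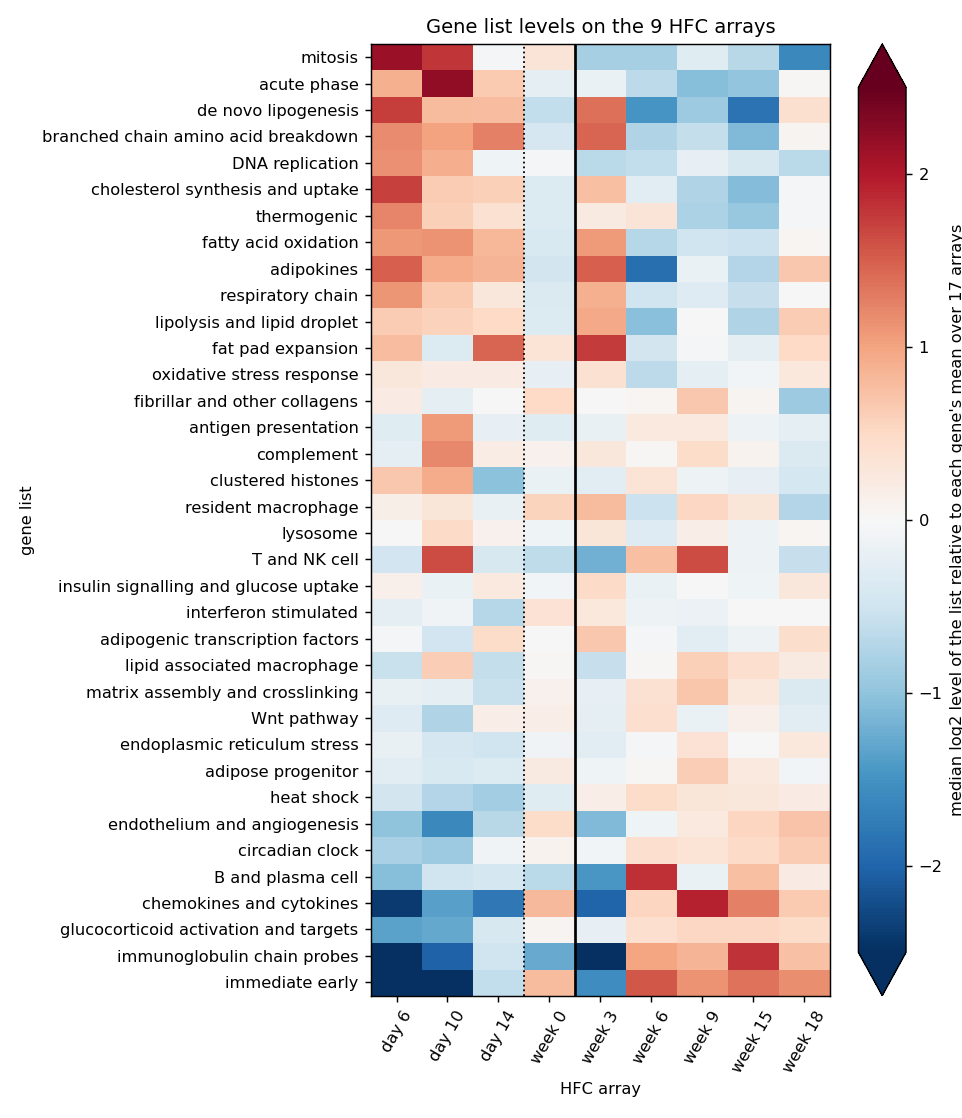
Median log2 level of each gene list (rows) on each of the 9 high fat diet arrays (columns), relative to each gene's mean over the 17 arrays of both diets; the scale stops at 2.5 either way. The dotted line separates scan periods and the solid line early from late; metabolic lists other than the thermogenic one are high on days 6 to 14 and week 3, and immediate early, chemokine and immunoglobulin lists are low there.

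**Figure D4:**
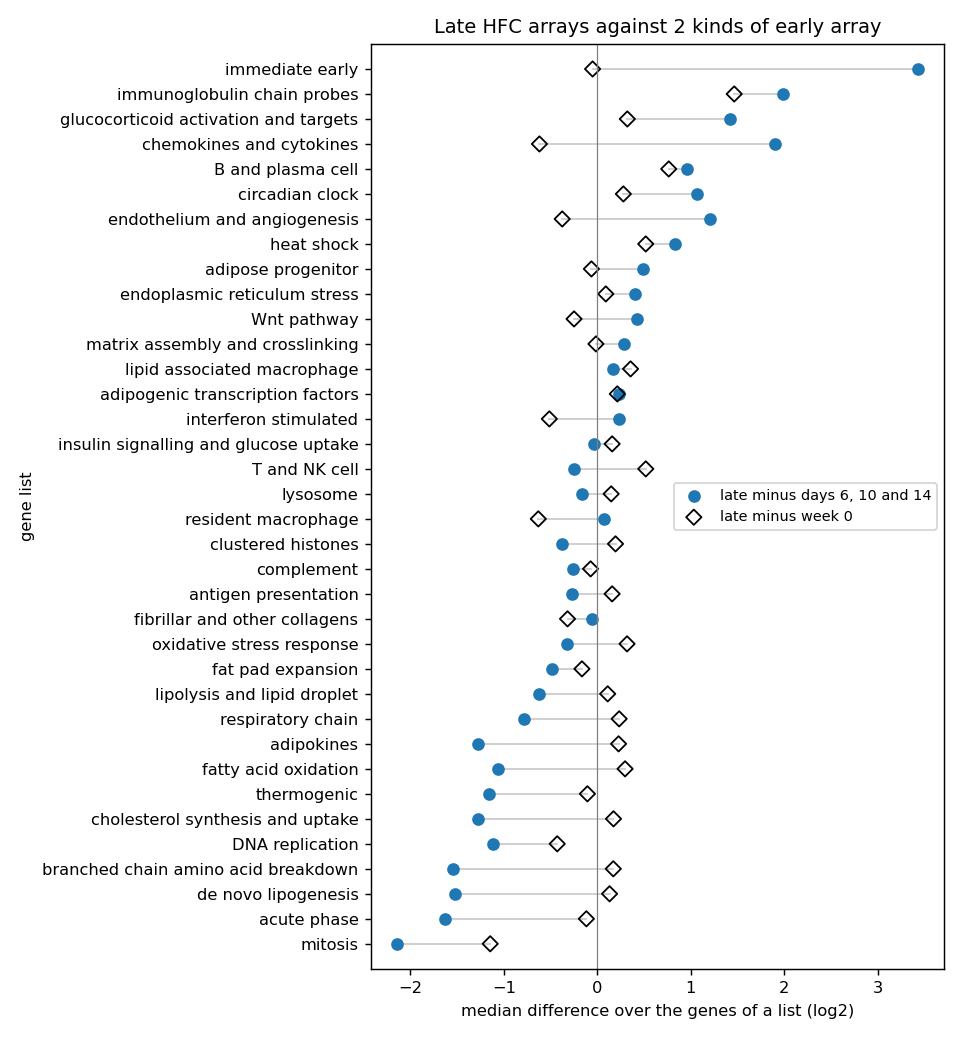
Median difference (log2) over the genes of each list, late arrays against days 6, 10 and 14 (filled circles) and against week 0 (open diamonds). For 21 of 36 lists the medians lie on opposite sides of 0, and the mitosis list (-2.14 and -1.15) is the lowest on both.

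Of the 36 process lists, 21 had medians of opposite sign against days 6 to 14 and against week 0, and 15 had the same sign. The plot of late arrays against both kinds of early array shows this for each list.

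Adipokines differed among themselves. Of 11 genes 9 were lower late (median -0.70; 0.23 against week 0), and without the day 10 and week 6 arrays the median was -0.36. Resistin (Retn) was at 6.03, 5.74, 5.47 and 3.04 early and at 5.93, 0.63, 2.28, 1.76 and 4.31 late (-2.09, adjusted p = 0.36; -0.06 against week 0). Leptin (Lep), the hormone that reports fat mass, was at 1.99, 1.23, 3.31 and 0.81 early and at 3.06, -1.99, 0.50, -0.37 and 2.0 late, so its groups overlapped over most of their range (-1.20, SE 0.97, adjusted p = 0.536). The difference was -0.54 without week 6 and reached -1.80 with another array left out. Adiponectin (Adipoq) differed by -0.53 (SE 0.56, adjusted p = 0.634), with 3 early arrays and 1 late array saturated.

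Genes used as markers of fat pad expansion had a median of -0.46 over 10 genes, 6 lower and 4 higher (-0.16 against week 0). Sfrp5, a secreted Wnt antagonist of adipocytes that is known to rise in growing fat, was at -5.26, -5.12, -6.14 and -5.44 early and at -3.87, -2.12, -4.37, -4.21 and -2.80 late (difference 2.02, SE 0.49, adjusted p = 0.251; 1.97 against week 0), with every late array above the early ones. Mest, an imprinted gene that marks early adipocyte enlargement, did not part the groups. It was at 4.65, 2.56, 5.05 and 3.72 early and at 5.18, 0.86, 2.71, 2.24 and 3.32 late (-1.13, SE 0.82, adjusted p = 0.49), and the difference was -0.63 without week 6 and reached -1.71 with another array left out. Npr3, the clearance receptor of natriuretic peptides, differed by -0.25, and only 1 of its 3 probes had that sign.

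In the Wnt list, 2 genes were higher and 1 lower without overlap among 20. The list median was 0.29, 0.42 against days 6 to 14 and -0.25 against week 0, and was 0.07 without the day 10 and week 6 arrays. Sfrp4 was at -0.94 to -0.31 early and at 0.50, 1.41, 2.19, 0.82 and 0.32 late (1.73, adjusted p = 0.251), and Wnt11, a ligand, differed by 1.48 (adjusted p = 0.259). Sfrp1, a related antagonist, was at 1.33, 1.26, 2.53 and 0.99 early and at -1.34, -0.70, 0.97, 0.59 and 0.36 late (-1.55, adjusted p = 0.286). These 3 genes kept their sign against week 0 (1.89, 1.01 and -1.02).

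Acute phase genes were lower late, with a median of -1.23 and 13 of 14 genes lower, and this rested on the days. Against week 0 the median was -0.12, and it was -0.75 without day 10 and -0.63 without day 10 and week 6. The list was highest on day 10 (2.21). Lcn2, an iron-binding protein of inflammation, was at -0.34, 2.30, 0.54 and -2.47 early and at -5.35, -1.68, -3.60, -2.77 and -3.14 late (-3.32, SE 0.96, adjusted p = 0.275). Saa3, serum amyloid A of fat tissue, was at 2.28, 5.75, 0.77 and 1.12 early and at 1.59, -1.55, -1.30, -0.63 and -0.29 late (-2.91, adjusted p = 0.292), where week 3 lay above 2 early arrays.

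Macrophage genes had no common direction. Resident macrophage genes had a median of -0.11 (7 of 16 higher; -0.63 against week 0), and the lipid associated macrophage list, of genes found in macrophages that take up adipocyte lipid, had 0.19 with 10 of 16 genes higher (0.36 against week 0). Without the day 10 and week 6 arrays these medians were 0.06 and 0.48, and the difference between the lists was not tested. In the second list Mmp12, a matrix metalloprotease, was at -7.78, -6.25, -9.05 and -4.97 early and at -8.45, -2.76, -1.50, -2.44 and -1.18 late (3.75, adjusted p = 0.303). It was well above background on 1 of 4 early arrays and on 4 of 5 late ones, so it entered the test through the late group and the size of its difference is uncertain. Gpnmb, a lysosomal glycoprotein, was at -5.25, -2.59, -3.68 and -2.35 early and at -4.91, 0.41, 0.04, 0.56 and 1.66 late (3.02, adjusted p = 0.309). Both were above all early arrays on each late array but week 3. Trem2, the lipid receptor of these cells, differed by 1.04 (adjusted p = 0.316), but weeks 6 and 15 (1.62 and 2.11) lay below day 10 (2.27). Cd68 (-0.24), Itgax (0.18, adjusted p = 0.89) and Spp1 (-0.92) also showed no such order. Of the resident genes, Cd209f was lower without overlap, at 2.83 to 3.33 early and 1.03 to 2.41 late (-1.23, adjusted p = 0.278), although only 1 of its 2 probes had that sign.

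Immunoglobulin probes were higher on late arrays other than week 3. Of the 70 immunoglobulin chain probes 55 were bright enough to test, and these 55 had a higher late mean (median 1.85), 1 without overlap and 17 at an unadjusted p under 0.05, and 48 of 55 kept the sign against week 0 (median 1.47). A probe passed the filter if it was above background on 4 of the 9 arrays, which the 5 late arrays could meet alone, and 38 of the 55 were not well above background on at least 1 early array. A higher late mean is thus in part set by the filter, and the count supports nothing by itself. Igkv3-4, a kappa variable segment, was the probe without overlap, at -5.79, -7.42, -5.90 and -5.36 early and at -5.0, -1.17, -2.40, -1.06 and -3.18 late (3.55, SE 0.80, adjusted p = 0.251), above background on 2 of 4 early and 5 of 5 late arrays. For Igh, the heavy chain, the early levels were 1.41, 2.83, 3.63 and 1.98 and the late levels 2.57, 4.88, 6.84, 6.02 and 5.53 (2.71, adjusted p = 0.279). Jchain, which joins secreted IgM and IgA, was at -0.96, -0.64, 1.68 and 0.84 early and at -1.39, 3.26, 3.37, 3.57 and 3.65 late (2.26, adjusted p = 0.336). Jchain at week 3 lay below every early array, as did the list median (-2.84 at week 3 and -2.61 to -0.51 early), while the list median of the other 4 late arrays lay at 0.73 to 1.81. Genes of B and plasma cells other than the chains had a median of 0.88 (0.76 against week 0), which fell to 0.38 without the day 10 and week 6 arrays, and Cd79a, a part of the B cell receptor, differed by 0.23 (adjusted p = 0.88). The week 6 array stood apart in lymph node markers (summed level of 9 lymph node stroma markers 32.89, against 0.8291 at the lowest late array and 1.842 to 4.526 early), and leaving it out gave medians of 0.46 for B and plasma cells and 1.69 for immunoglobulin probes.

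T and NK cell genes had no common direction (median -0.01, 10 of 21 higher, 0.52 against week 0, and 0.38 without the day 10 and week 6 arrays). Il2ra, the high affinity interleukin 2 receptor chain of regulatory T cells, was higher without overlap by 2.53 (SE 0.58, adjusted p = 0.251). It was dim, above background on 3 of 4 early and 5 of 5 late arrays, with week 0 at -5.91 and week 3 at -5.69. On LFC it differed by 2.29. Cd3g, a chain of the T cell receptor complex, differed by -0.01 with day 10 far above the other early arrays at -0.38. Markers of mast cells and granulocytes were higher late in 11 of 12 cases (median 0.74), 3 without overlap, and 8 of 12 kept the sign against week 0 (median 0.59). Mcpt4, a mast cell protease, was at -2.75 to -1.89 early and -1.51 to -0.43 late (1.36, adjusted p = 0.251), Cma1, the mast cell chymase, differed by 0.60 and the IgE receptor chain Fcer1a by 1.41.

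Collagens had a median of -0.20 (10 of 16 lower; -0.32 against week 0, and 0.03 without week 18), and the strongest of them were at the scanner's ceiling. Col3a1 was saturated on all 4 early arrays and 4 late ones, and differed by 0.35 (adjusted p = 0.634). Col1a1 differed by 1.08 (adjusted p = 0.622), but only 1 of its 3 probes had that sign, its day 10 value was missing, and without day 14 the difference was -0.45. Thbs1, a matrix protein that activates TGF-beta, differed by 3.65 (SE 0.84, adjusted p = 0.251) with week 3 at 0.37 and the other late arrays at 2.03 to 2.48, and by 0.79 against week 0. Pcolce2, an enhancer of collagen processing, was at -0.32, -1.15, 0.05 and 0.61 early and at 1.95, 1.94, 2.83, 1.92 and 1.54 late (2.24, SE 0.40, adjusted p = 0.251; 1.43 against week 0) with no overlap. Endothelial genes had a median of 0.80 (16 of 20 higher) and of -0.38 against week 0. For Fabp4, Cfd, Dcn, Angptl4 and C3, all saturated on all 4 early arrays, the late arrays lay higher by 0.60 to 0.77, and such values follow the scaling of a signal at its ceiling, so they are given no direction. Of the probes of Fabp4 and C3, 2 of 3 and 1 of 2 had that sign.

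None of the 5 genes that led the lower direction by the smallest limma p of any probe was on a list. The values given are those of the brightest probe, which was another probe for Fndc5 and Srd5a2, and for Sema3e in the higher direction. By the limma p of the brightest probe, the mitosis genes Nek2 and Bub1b came before Fndc5 and Srd5a2. Bmpr1b, a BMP receptor, was at -5.25, -4.10, -3.35 and -4.85 early, above background on 4 of 4 arrays, and on the late arrays (-7.87 to -7.59) was never well above background, which is at least 5.87-fold lower (adjusted p = 0.115). Ano9, of the anoctamin family, was above background on 4 of 4 early arrays (-4.72 to -1.86) and on 0 of 5 late ones, at least 13.2-fold lower (adjusted p = 0.149). Bmpr1b and Ano9 thus entered the test through the early group alone. Their late values lay at background with an SD of 0.12 and 0.17, so the small p of both rests in part on that floor. Nrk, a kinase active in embryonic tissue, was at -2.50, -1.90, -3.16 and -2.87 early and at -5.35, -6.99, -5.99, -6.59 and -7.64 late (-3.90, SE 0.47, adjusted p = 0.115; -3.64 against week 0). Fndc5, the precursor of irisin, was at 0.97, 1.93, 1.49 and 0.70 early and at -2.27, -2.54, -0.33, -1.22 and -0.62 late (-2.67, SE 0.51, adjusted p = 0.251). Srd5a2, a steroid reductase, differed by -3.94 (adjusted p = 0.251) and was above background on 1 of 5 late arrays. In the higher direction, beside Hsph1, Pcolce2 and Zbtb16, stood Sema3e, a guidance factor of vessels and macrophages, at -6.67, -6.80, -4.99 and -4.55 early and at -3.27, -1.61, -1.36, -2.91 and -3.25 late (3.27, SE 0.62, adjusted p = 0.251), and the RNA A330069E16Rik (1.48), of which 1 of 2 probes had that sign. Early and late arrays did not overlap for any of these 10 genes, which were chosen by their p.

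The same comparison on the control diet was set beside that on the high fat diet. Both diets shared scan periods and were tested in 1 limma fit of 17 arrays. For a difference seen on both diets, time, age and scan period cannot be told apart. On LFC 67 of 32290 probes (0.207%) were lower and 13 (0.0403%) higher late at an adjusted p under 0.05. The total of 80 was 0 without day 6, 10 or 14 or week 6, 9 or 18 and 1 without week 15. Without week 0, which leaves the other scan period as early, it was 111. It was 173 without the HFC week 3 array, which has no LFC partner and enters only through the shared estimate of the spread. Of the mitosis list 9 of 29 genes fell on LFC, with a list median of -2.46, and Nek2 (-2.45, adjusted p = 0.0306), Pbk (-3.50, adjusted p = 0.0306) and Nrk (-4.55) were among those that passed. Of 55 immunoglobulin probes 5 rose on LFC, with a median of 3.50 against 1.85 on HFC (2.64 without HFC week 3). Lymph node stroma markers had a median of 1.11 on LFC (5 of 7 higher) and 0.10 on HFC. Without the day 10 and week 6 arrays their HFC median was 0.39. Their part in the immunoglobulin medians was not tested. The difference between the diets in late against early was past the threshold for 0 of 32290 probes (0%), with 310 (0.96%) at an unadjusted p under 0.05 and a smallest adjusted p of 1. With time point as a block 2 probes passed, Slc6a3 and Olfr340, both near background. A p that misses the threshold does not show that the diets were alike, and the median standard error of the difference without that block was 0.65.

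Some values stood apart by diet without passing a test. Dbp and Arntl differed by 1.80 and -1.46 on HFC and by -0.28 and 0.09 on LFC, Lcn2 by -3.32 and 0.02, Sfrp5 by 2.02 and 0.41, and leptin by -1.20 and 1.0. Resident macrophage genes had a median of -0.11 on HFC and 0.69 on LFC, where 15 of 16 were higher, and T and NK cell genes had -0.01 and 0.95. The HFC late group holds week 3 and the LFC late group does not, and without HFC week 3 these HFC medians were -0.20 and 0.41. Collagens had -0.20 and -0.70, with 16 of 16 lower on LFC. Immediate early genes were higher late in 19 of 19 cases on both diets, with medians of 2.63 and 1.40. Mast cell and granulocyte markers had 0.74 on HFC and 1.45 on LFC, with 11 of 12 higher on both. Chemokines and cytokines had 1.05 on HFC and 1.82 on LFC, with 20 and 23 of 25 higher. Without HFC week 3 the HFC medians of these 2 lists were 1.01 and 2.36. The adjusted p of the difference between diets was 1 for each single gene named in these sentences.

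**Figure D5:**
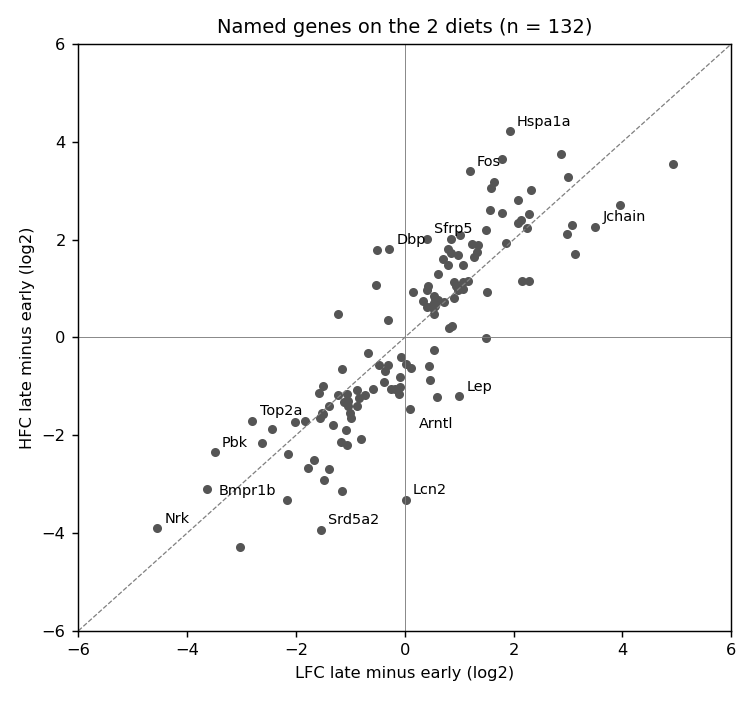
Late minus early difference (log2) of the 132 named genes on the control diet (x axis) and on the high fat diet (y axis), 1 point per gene, with the line of equal differences dashed. Nrk, Pbk and Hspa1a lie on the same side of 0 on both diets, and Dbp, Arntl, leptin (Lep) and Lcn2 lie away from the line.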

How the data were processed

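RNA of epididymal fat was labelled with Cy3 and read on one-colour Agilent arrays, 1 per diet and time point. Per the file headers, the deposited files hold intensity values that Agilent Feature Extraction 10.5.1.1 had background-subtracted within each array (the submitters' processing notes name version 9.1), with no normalisation between arrays. The authors' table of log2 fold changes against the control diet holds their own comparisons and was not used. Arrays of KAL-1, and the control arrays of day 1 and week 12, were not used.

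Of 45220 spots 43803 were not controls, for 40628 probes. The log2 processed signal minus the array's 75th percentile was averaged over the spots of a probe, after spots flagged as outliers had been set to missing. A probe entered the test if at least 4 of the 9 arrays (4 of 17 for both diets) had it well above background, and was tested with limma 3.58.1 in R 4.3.3 (package data.table, version 1.17.8), with Benjamini-Hochberg adjustment and a threshold of 0.05. With 4 and 5 arrays the residual degrees of freedom were 7, which bounds the precision. The 9 arrays lay on 9 slides and 9 scan dates, so neither could be fitted as a block. The main limma fit of the high fat diet and that of both diets were tested on simulated data, and the other steps were not.

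Gene names came from accessions (69.3% of probes), symbols (12.3%) or synonyms (3.46%) held by RefSeq for GRCm38.p6. Each gene was represented by its brightest tested probe. Genes were named by rule (132 genes). The 5 genes in each direction with the smallest p on any probe were taken. To these were added the 3 smallest p of each of 36 process lists and a fixed panel. Other list members, the markers and probes past a threshold in a second fit were named after their values were seen. Results of some genes that the rule named are not reported here. A probe above background on no array of 1 group gives a bound: the bright group's mean against the mean, per dim array, of the higher of the dim probe and the dimmest probe above background. The members, lists and tests were chosen with earlier results of these data known. Alternatives covered background, scaling, filter, outlier spots, array weights, variance model, scan period, trend, test and arrays left out.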

Additional observations from a re-analysis of the deposited data

Results flagged for a closer look

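For 36 of 263 groups of 4 or 5 arrays, 1 array lay far from the rest of its group by Dixon's test, where chance gives about 5%. No explanation was tested.

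Of these, 18 were the week 3 array among the late ones. It was low for Hspa1a (3.76, others 6.12 to 6.91), Nr4a1 (3.94), Fos (0.72, others 4.75 to 5.76), Thbs1 (0.37), Ccl7 (0.92), Socs3 (1.43, others 5.96 to 6.99), Slc2a1 (0.36), Icam1 (-2.32), Jchain (-1.39, others 3.26 to 3.65), Mmp12 (-8.45, others -2.76 to -1.18), Gpnmb (-4.91) and the histones H3c4 (3.30) and H3c14 (4.10). It was high for Plagl1 (3.46, others 0.35 to 0.98), Irf7 (0.93), Fads2 (0.24), Hadha (0.34) and Cyc1 (4.70).

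The week 0 array stood apart from days 6 to 14 for 9 genes. It was low for Cx3cr1 (-4.55, others -2.25 to -1.90), Fdft1 (-1.0), Slc25a20 (-0.68), Acads (-0.70), Adipoq (4.96, others 5.93 to 6.01) and Scd1 (4.90, others 5.91 to 5.95), and high for Ifit1 (2.92, others -0.35 to -0.02), Retnla (5.72) and Ccl2 (5.36, others 1.31 to 1.98). For Adipoq and Scd1 the 3 other early arrays were saturated, so their narrow range is that of the scanner's ceiling.

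The day 10 array was high for Irf7 (1.49), the macrophage receptor Csf1r (3.36) and Cd3g (-0.38, others -3.50 to -3.19). Week 6 was high for Egr2 (4.99) and Fads1 (0.15) and low for Npc1 (-2.67), week 9 was high for Il1rl1 (0.48), and week 18 was low for Dnajb1 (4.67) and H2-DMa (-1.85).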

How the results depend on the processing

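By limma on the high fat diet, 0 probes passed under normexp background, quantile or median scaling, both filters on dim probes, kept outlier spots, a trended variance, the linear trend, week 12 added and the methods' t-test. Array weights gave 5510 probes (2811 higher, 2699 lower), with the week 3 array weighted 0.373 and week 0 0.485. Of the 132 named genes 91 passed then, while of all 21285 genes 9.11% passed as higher and 8.83% as lower. The scan period term and week 0 alone rest on the lone week 0 array, whose value for Rpl7-ps8 stood apart (-5.49). Leaving out 1 array gave 0 to 242; the 242 (54 higher, 188 lower) came without week 0, which leaves days 6 to 14 alone as early, so that early and late are then also the scan periods. Nek2, Bub1b and Hsph1 were among the 15 named genes that passed there, while of all 21280 genes 0.174% passed as higher and 0.677% as lower. Most named genes were picked by their p in these same arrays, so neither count of named genes supports anything by itself. The number at an unadjusted p under 0.05 (4648) was 1285 under normexp, 11397 with weights, 382 with the scan period term, 285 with week 0 alone, 8064 for the trend, 2607 to 8140 with 1 array left out (8140 without week 3, 7400 without week 0, 2607 without day 6, 2669 without day 10, 2858 without day 14 and 3079 without week 18), and 1929 without the day 10 and week 6 arrays together, a choice made after seeing the data. Under median scaling the split was 2495 higher and 1873 lower, under quantile scaling 1988 and 2624.

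The within-period fit rested on the week 0 array whichever other array was left out. The difference in array signal (-396.8) was -465.6 to -346 with 1 array left out. The difference between diets gave 0 with any time point left out (0 to 0) and 2 with time point as a block, Slc6a3 (3.82) and Olfr340 (4.31), both near background. On LFC the count of 80 was 0 under normexp, 40 under quantile and 25 under median scaling, 33 for probes above background on every array, 442 with weights, 39 with a trended variance and 0 with LFC week 3 kept. With 1 time point left out it was 0 without day 6, 10 or 14 or week 6, 9 or 18, 1 without week 15 and 111 without week 0. It was 173 without the HFC week 3 array, which has no LFC partner in the fit.

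Of 3021 values of named genes, 2965 kept their direction and 56, of 25 genes, did not. Normexp turned Cd3g to 0.037 and Ucp1 to 0.17, and quantile scaling turned the saturated Cfd (-0.021), C3 (-0.039), H2-D1 (-0.12) and Col3a1 (-0.32). The scan period term and week 0 alone turned the same genes: Ccl7 (-0.37), Ifit1 (-0.56), Retnla (-0.13), Fdft1 (0.13), Mvk (0.064), Col8a1 (-0.20), Socs3 (-0.10), Pcca (0.028), Pccb (0.037), Anxa3 (-0.22), Icam1 (-0.34), Adipoq (0.23), Npr3 (0.23), Col1a1 (-0.34), Ccl2 (-0.31), Cd3g (0.83) and Fos (-1.11). With 1 array left out, the values of 6 genes spanned 0: Itgax -0.14 to 0.59, Ucp1 -0.85 to 0.074, Cd3g -0.53 to 0.74, Npr3 -0.68 to 0.22, Col1a1 -0.45 to 1.90 and Cd79a -0.13 to 0.66. Without day 10 and week 6, Cd3g was 0.52 and H2-Aa 0.032. The cause was not tested. Of 1080 list medians, 45 moved by more than 1 SD.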

Other observations

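Among the 5 late arrays, weeks 3 and 18 were the highest for leptin (Lep, 3.06 and 2.0), resistin (Retn, 5.93 and 4.31), Mlxipl (3.31 and 1.02) and Scd1 (6.04 and 6.13), and weeks 6 and 15 the lowest for Lep (-1.99 and -0.37). Interferon stimulated genes had a list median of 0.13 on HFC, -0.51 against week 0 and 0.20 without the day 10 and week 6 arrays. Ifit1 differed by 1.75 and Irf7 by -1.41 (limma adjusted p = 0.303 and 0.286), and against week 0 both were lower late (-0.56 and -1.15). Of oxidative stress genes, Txnrd1 (1.14), Srxn1 (0.93) and Nfe2l2 (0.81) were higher late while 12 of 18 genes of the list were lower (median -0.23, 0.32 against week 0 and -0.06 without the day 10 and week 6 arrays).

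The 9 liver markers summed to 52.49 at week 3, of which Cyp2e1, an enzyme that fat also expresses, made up 51.74, and without it the sum was 0.7476 there, 12.9 and 11.96 on days 6 and 10, and 0.3653 to 3.731 on the other late arrays.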
